A study of Mus musculus with 8 samples.

Results

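To describe where the repressive histone mark H3K27-me3 lies at the enzymes of hepatic conjugation, the UDP-glucuronosyltransferases (Ugt), sulfotransferases (Sult) and glutathione S-transferases (Gst) of the mouse were examined in ChIP-seq of fasted liver. The members were chosen by name alone, as the protein-coding genes of chromosomes 1 to 19 whose symbol begins with a Ugt, Sult or Gst family name followed by its subfamily, and 65 of 20720 protein-coding genes matched. They comprise 22 Ugt, 21 Sult and 22 Gst genes. Because most lie in tandem arrays, the 65 start sites fall into 21 loci when neighbours within 200 kb are joined. Of these loci, 11 hold 55 of the members, so that neighbouring members share regions and are not independent.

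All mice were male JMJD3-floxed C57BL/6 animals, so both groups carry the floxed allele of Jmjd3. At 8 weeks of age they received AAV-TBG-Cre, in which the TBG promoter drives the Cre recombinase in hepatocytes, or the control AAV-GFP, and after 12 weeks they were fasted for 16 h. The series holds 2 H3K27-me3 and 2 input libraries per virus, and the authors combined each pair of H3K27-me3 libraries into 1 list of enriched regions. Thus 2 lists were compared, named AAV-Cre and AAV-GFP, with no value per mouse. The variation among mice is therefore unknown, no difference between the lists was tested, and each Wilson 95% interval covers counting error only. The labels call the material primary liver cells and the protocol describes minced liver. In such bulk material fewer cells with the mark and less mark per cell cannot be told apart.

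Conjugation attaches a polar group to bilirubin, bile acids, steroids, hormones and drugs so that they can be excreted in bile or urine. Ugt enzymes transfer glucuronic acid in the endoplasmic reticulum, Sult enzymes transfer sulfate in the cytosol and Gst enzymes transfer glutathione. The liver is the main site of these reactions, but several members are known mainly from brain, skin or other tissues, and some Sult2a and Sult3a genes are known for higher expression in female than in male mouse liver. H3K27-me3 is deposited by the Polycomb complex PRC2, is removed by JMJD3 and is found at silent genes, often as broad domains and often at start sites rich in the dinucleotide CpG.

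The sequences upstream of the start sites show the base composition at some members with and without the mark. The 250 bases before the start site are given 5' to 3' on the strand of the gene, from RefSeq (GRCm38.p6), in lower case with each CpG in capitals. Ugt8a (chr3:125938653-125938902, minus strand) and Sult2b1 (chr7:45759613-45759862, minus strand) carried strong start-site regions and lay wholly inside regions of both lists. Gsta3 (chr1:21240335-21240584, plus strand), Gstk1 (chr6:42245685-42245934, plus strand) and Gstm1 (chr3:108017974-108018223, minus strand) are hepatocyte enzymes without a region within 15 kb.
Ugt8a: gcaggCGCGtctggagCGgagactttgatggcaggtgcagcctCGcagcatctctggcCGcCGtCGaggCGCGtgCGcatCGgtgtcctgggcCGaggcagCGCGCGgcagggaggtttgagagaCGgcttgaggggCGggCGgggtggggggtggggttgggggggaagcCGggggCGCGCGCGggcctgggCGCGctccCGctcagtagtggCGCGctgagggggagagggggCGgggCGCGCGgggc
Sult2b1: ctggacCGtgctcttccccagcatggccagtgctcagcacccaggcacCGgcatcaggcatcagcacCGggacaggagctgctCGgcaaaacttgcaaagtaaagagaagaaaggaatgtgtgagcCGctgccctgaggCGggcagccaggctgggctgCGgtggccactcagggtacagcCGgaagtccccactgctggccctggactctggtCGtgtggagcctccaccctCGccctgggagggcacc
Gsta3: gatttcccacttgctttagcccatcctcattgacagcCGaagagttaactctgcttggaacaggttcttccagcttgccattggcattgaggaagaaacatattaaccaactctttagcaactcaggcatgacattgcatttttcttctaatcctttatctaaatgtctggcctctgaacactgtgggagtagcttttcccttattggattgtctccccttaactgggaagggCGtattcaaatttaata
Gstk1: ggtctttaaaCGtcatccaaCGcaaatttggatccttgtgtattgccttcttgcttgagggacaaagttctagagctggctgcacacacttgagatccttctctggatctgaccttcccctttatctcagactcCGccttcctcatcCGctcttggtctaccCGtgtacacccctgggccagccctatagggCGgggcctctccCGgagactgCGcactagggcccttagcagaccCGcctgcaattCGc
Gstm1: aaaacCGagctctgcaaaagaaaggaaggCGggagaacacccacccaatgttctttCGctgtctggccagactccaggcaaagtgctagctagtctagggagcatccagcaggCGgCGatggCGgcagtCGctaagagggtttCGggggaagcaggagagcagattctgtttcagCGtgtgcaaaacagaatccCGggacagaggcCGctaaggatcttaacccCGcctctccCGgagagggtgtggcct
The motif searched was CG, which reads the same on both strands. Ugt8a held 32 CpG and Sult2b1 10, whereas Gstm1 held 13, Gstk1 10 and Gsta3 2. Of the 32851 such stretches given by RefSeq, 92.1% held at least 1 CpG and 37.8% held 10 or more, with a median of 6. Among the 57 members given there, 11 held 10 or more. The CpG numbers of marked and unmarked genes thus overlapped among these 5.

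A second kind of sequence lay in the Sult2a and Sult3a arrays, where start sites with a region within 1 kb were poor in CpG. The CpG content of the regions themselves was not measured, apart from the summit shown here. Upstream stretches of Sult2a5 (chr7:13623717-13623966, plus strand) and Sult3a1 (chr10:33857472-33857721, plus strand) and 200 bases at the summit of the strongest Sult2a region, in an intron of Sult2a1 (chr7:13810501-13810700, plus strand, GRCm38), are shown for this contrast and were chosen after their values were seen.
Sult2a5: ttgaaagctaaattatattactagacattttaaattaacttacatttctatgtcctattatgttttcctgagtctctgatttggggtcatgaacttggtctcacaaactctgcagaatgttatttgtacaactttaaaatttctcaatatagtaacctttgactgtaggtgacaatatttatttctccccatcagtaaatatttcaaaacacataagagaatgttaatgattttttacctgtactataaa
Sult3a1: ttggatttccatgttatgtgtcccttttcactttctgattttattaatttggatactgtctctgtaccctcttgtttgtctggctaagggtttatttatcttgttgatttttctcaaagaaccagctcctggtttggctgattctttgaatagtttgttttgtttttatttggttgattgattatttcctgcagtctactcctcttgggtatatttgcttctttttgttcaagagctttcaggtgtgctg
Sult2a1 intron: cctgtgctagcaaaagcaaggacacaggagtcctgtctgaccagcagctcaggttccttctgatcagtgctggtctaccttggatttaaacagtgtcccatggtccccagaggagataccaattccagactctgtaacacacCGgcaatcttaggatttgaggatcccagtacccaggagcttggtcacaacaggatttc
Both upstream stretches held 0 CpG and the summit held 1. No base of the 2 upstream stretches lay inside a region, although the nearest AAV-Cre regions were 174 bp from the Sult2a5 and 836 bp from the Sult3a1 start site printed here.

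Most conjugation enzymes were free of the mark in both lists. With the window of the study, 15 kb around a start site, 17 of the 65 members were marked in AAV-Cre (26.2%, interval 17.0 to 38.0%), against 43.1% of all protein-coding genes. In AAV-GFP 12 members were marked (18.5%, interval 10.9 to 29.6%), against 29.0% of all genes. These 12 were marked in both lists, where the share of all genes was 27.7%. Marked only in AAV-Cre were 5 members (7.69%, interval 3.33 to 16.8%), namely Sult3a1, Gstm5, Sult6b2, Sult2a6 and Sult2a7, against 15.3% of all genes. With the same number of top peaks taken from each list 2 of these 5 were left, Sult2a7 and Sult3a1, whereas with q-values of at most 0.05 or at most 0.01 the count was 9. The share of all genes was not computed under these settings. Of all regions, 88.5% in AAV-Cre and 46.8% in AAV-GFP had a q-value of 0.05 or lower. Marked only in AAV-GFP were 0 members (interval 0 to 5.58%), against 1.25% of all genes. At least 1 list marked 17 members, against 44.3% of all genes. The remaining 48 members (73.8%) had no region within 15 kb in either list, and 0 of these 48 had a region over the gene body. By locus, AAV-Cre marked a member in 9 of 21 and AAV-GFP in 7.

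The same counts were made closer to the start site and over the gene body. Within 1 kb a region was present for 12 members in AAV-Cre (18.5%, all genes 24.6%) and 8 in AAV-GFP (12.3%, all genes 17.1%). Only AAV-Cre had one for Gsto1, Sult2a1, Sult2a2, Sult2a3 and Sult3a1 (7.69%, all genes 7.81%), and only AAV-GFP for Sult6b1 (1.54%, all genes 0.294%). For Sult2a3 and Sult2a1 this rests on the edge of the window. Their nearest AAV-GFP regions, at 1057 and 1202 bp, lay inside AAV-Cre regions that reached within 1 kb. In at least 1 list 13 members had a region so close (all genes 24.9%). Over the gene body, regions were present for 15 members in AAV-Cre (23.1%, all genes 29.8%) and 11 in AAV-GFP (16.9%, all genes 21.4%). A body region was found only in AAV-Cre for 4 members, Sult2a7, Sult3a1, Sult6b1 and Sult6b2 (all genes 9.10%), and only in AAV-GFP for 0 (all genes 0.748%), so that 15 members had one in at least 1 list (all genes 30.5%). AAV-Cre marked more genes than AAV-GFP in each of these windows, among the members and among all genes, and the share of members marked only in AAV-Cre was at or below that of all genes.

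**Figure D1:**
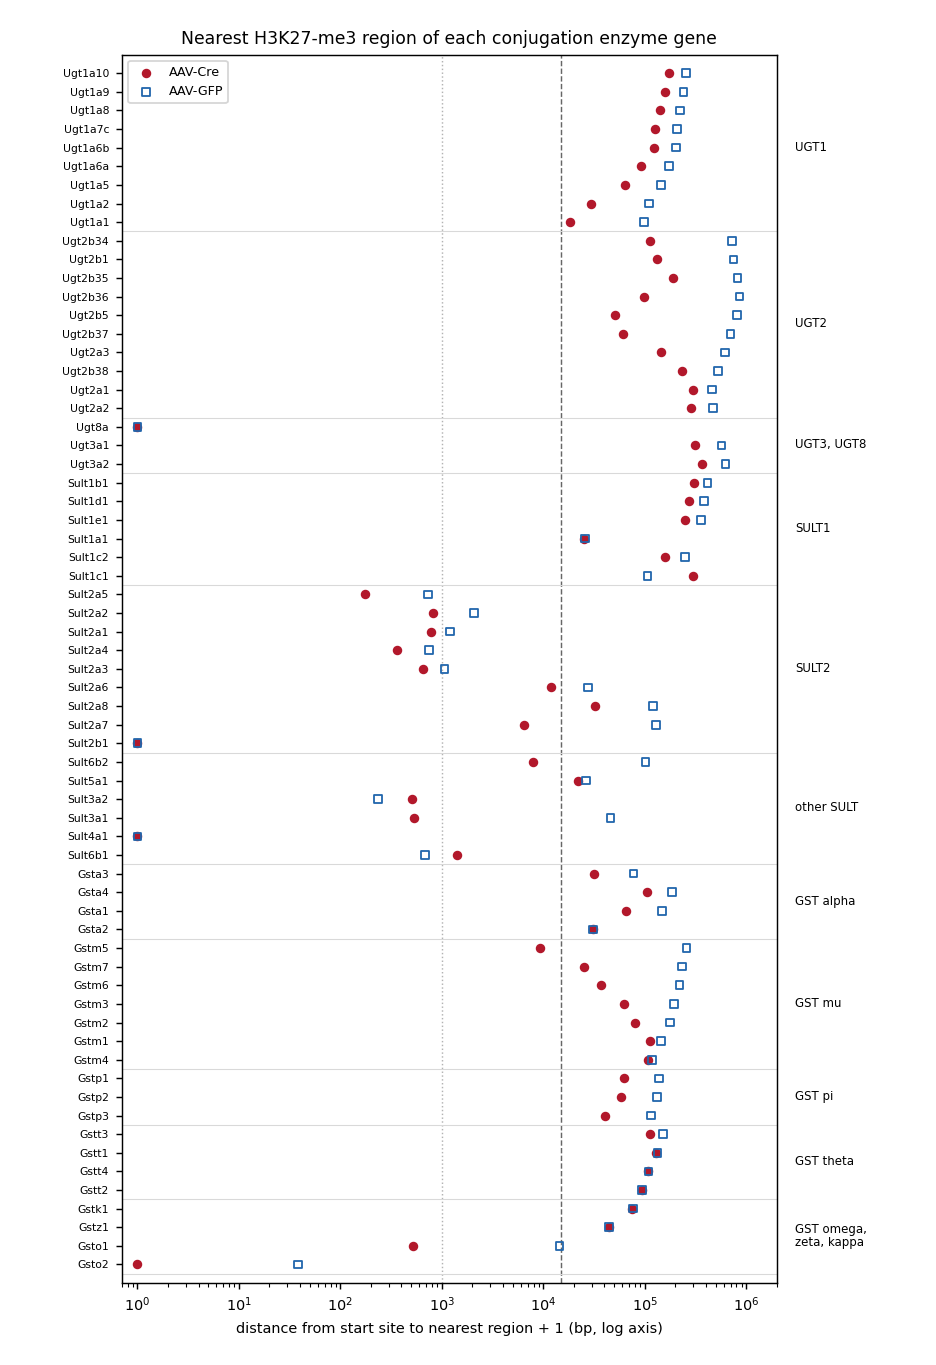
Distance in bp (log axis, plotted as distance + 1, with dotted and dashed lines at 1 and 15 kb) from the start sites of each of the 65 members to the nearest H3K27-me3 region, with 1 point per list and members grouped by subfamily. Sult2, other Sult, Ugt8a and Gst omega genes reach below 15 kb, whereas all UGT1, UGT2 and SULT1 genes lie beyond it in both lists.

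The mark was unevenly divided among the subfamilies, and the sulfotransferases held most of it. In AAV-Cre 8 of 9 Sult2 genes were marked within 15 kb and in AAV-GFP 6, all on chromosome 7. Of the 6 Sult3 to Sult6 genes, AAV-Cre marked 5 and AAV-GFP 3, and Sult5a1 was marked in neither list. The 6 Sult1 genes, which sulfate phenols, catechols and estrogens, were marked in neither list. Among glucuronosyltransferases 0 of 9 Ugt1 and 0 of 10 Ugt2 genes were marked in either list, and of the 3 other genes only Ugt8a was. Among glutathione S-transferases 0 of 4 alpha, 0 of 3 pi and 0 of 4 theta genes were marked. The mu class held 1 marked gene of 7 in AAV-Cre (Gstm5) and 0 in AAV-GFP, and of the 4 omega, zeta and kappa genes both omega genes were marked in both lists.

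The Sult2a array was the place where the mark covered the most sequence. Sult2a enzymes sulfate bile acids and the steroid dehydroepiandrosterone. Between Sult2a5 and Sult2a6 (mm10, chr7:13623967-14254870), a stretch of 631 kb, AAV-Cre held 156 regions that covered 182 kb (28.9%), and AAV-GFP held 192 regions that covered 53.3 kb (8.46%). The AAV-GFP list thus had more regions but less covered sequence, because its regions were narrower, with a median width of 208.5 bp against 853 bp. AAV-Cre regions contained 91.4% of the AAV-GFP bases, and 175 of the 192 AAV-GFP regions overlapped an AAV-Cre region. A q-value of 0.05 or lower, which is computed within each peak call, was reached by 91.7% of the AAV-Cre and 42.7% of the AAV-GFP regions. The covered share of the array was not the largest. In AAV-Cre it was exceeded over the bodies of Gsto2 (49.5%), Sult4a1 (46.3%) and Sult2b1 (35.4%), and in AAV-GFP over that of Sult4a1 (9.4%).

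Regions of this array lay over gene bodies and between genes. The AAV-Cre regions covered 74.1% of the Sult2a5 body and the AAV-GFP regions 28.5%. Sult2a1 had 53.9% covered in AAV-Cre and 26.5% in AAV-GFP. These were the 2 members with the largest covered share in AAV-Cre, and also in AAV-GFP. Of the 79932 bp of Sult2a4, 22072 bp were covered in AAV-Cre and 5598 bp in AAV-GFP. Covered shares were 25.9% and 6.45% for Sult2a2, and 19.6% and 7.12% for Sult2a3, with AAV-Cre given first. Sult2a6 had 15.3% covered in the first list and 0.376% in the second, the latter by 1 region of 122 bp. No start site of a Sult2a gene lay inside a region in either list, but within 500 bp of the start sites of Sult2a1 and Sult2a2 only 5.29% and 8.79% of the 31-base words occurred once in the genome, so that a missing region there is uncertain. The nearest AAV-Cre region was between 174 bp (Sult2a5) and 809 bp (Sult2a2) from the start sites of Sult2a1 to Sult2a5, and the nearest AAV-GFP region between 733 bp (Sult2a5) and 2075 bp (Sult2a2).

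The strongest Sult2a region by p-value lay in an intron of Sult2a1 in each list. In AAV-Cre it was chr7:13810203-13813723, 3521 bp wide, enriched 6.48-fold over input with a q-value of 2.5e-19. In AAV-GFP it was chr7:13800106-13800912, 807 bp wide, enriched 4.50-fold with a q-value of 1.49e-07. Folds are relative to the input of the same virus group and were not compared between lists. The closest start site of both regions was that of Sult2a1, 23686 and 36497 bp away.

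The distal end of the array differed from the rest. Between Sult2a8 and Sult2a7 (chr7:14410686-14494230), AAV-Cre held 1 region of 421 bp, in an intron of Sult2a7, and AAV-GFP held 0. Sult2a7 had a second AAV-Cre region of 604 bp at 6375 bp from a start site, with a q-value of 0.0162, whereas its nearest AAV-GFP region was 128285 bp away. Sult2a8, known as the Sult2a enzyme of hepatocytes in both sexes, had no region within 15 kb and lay 32163 bp from the nearest region in AAV-Cre and 120326 bp from that in AAV-GFP. Sult2a6 was called only in AAV-Cre because its nearest start-site region, of 1664 bp, was 11809 bp away, the largest distance inside the window in that list, while the AAV-GFP region in its body was 27380 bp away.

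The Sult2a copies are similar in sequence, which limits how reads can be placed. Of the 31-base words in the gene body, 24.9% occurred once in the genome at Sult2a2, 42.9% at Sult2a1, 59.6% at Sult2a4, 60.5% at Sult2a3 and 63.7% at Sult2a5. In the array the share was 62.9% inside and 48.2% outside AAV-Cre regions, and 66.6% inside and 51.2% outside AAV-GFP regions. Regions thus lay on the more unique sequence of the array in both lists, and the number of separate regions there is uncertain. How reads with several matches were treated is not given in the sources used here.

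**Figure D2:**
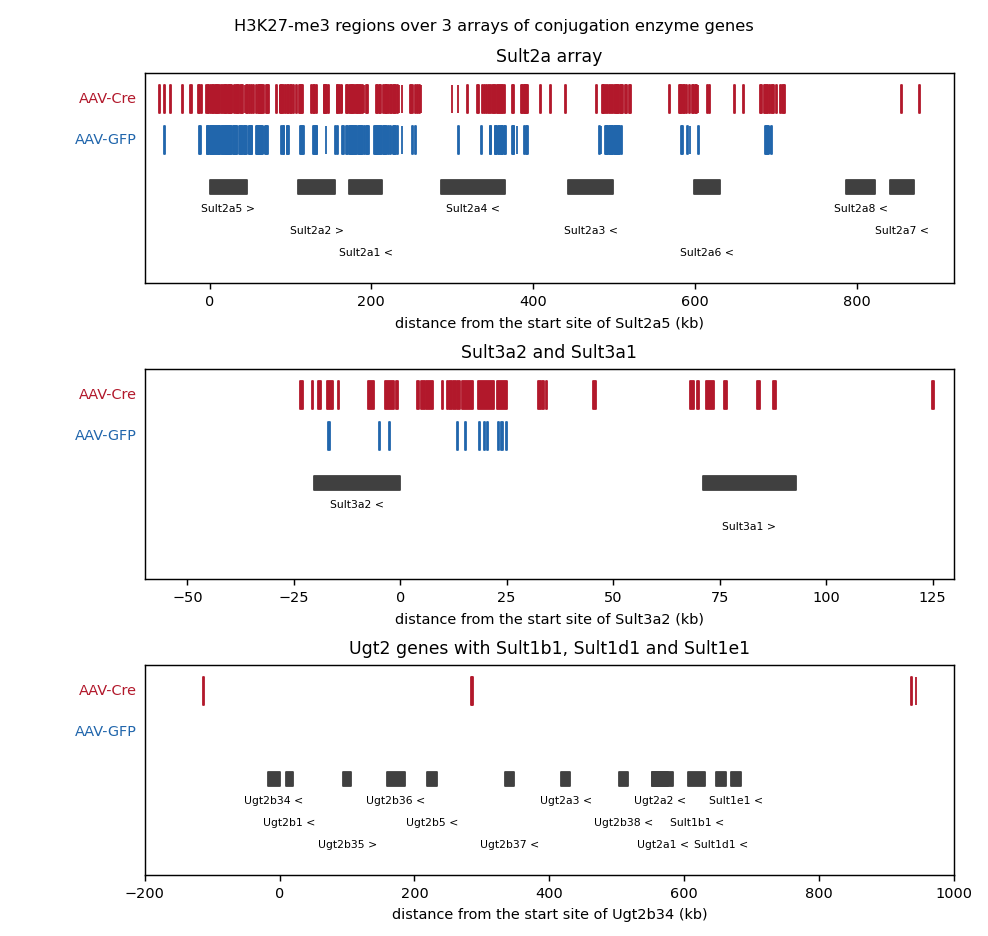
Regions of each list (colored bars, drawn at a minimum visible width) and gene bodies (dark bars, with the strand as an arrowhead) along the Sult2a, Sult3a and Ugt2 arrays, against the distance in kb from a start site. Regions are dense over Sult2a5 to Sult2a3 in both lists, those around Sult3a1 are in AAV-Cre alone, and in the Ugt2 array 2 neighbouring AAV-Cre regions, drawn nearly as 1 bar, and 0 AAV-GFP regions lie between the genes.

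A similar arrangement was found at Sult3a, a pair of amine-sulfating enzymes on chromosome 10. From Sult3a2 to Sult3a1 (chr10:33766424-33879532), AAV-Cre held 27 regions over 25.3% of the stretch and AAV-GFP 11 regions over 2.31%. The strongest region of both lists lay between the 2 genes, closest to Sult3a2. In AAV-Cre it spanned 2352 bp (chr10:33809470-33811821) with a fold enrichment of 7.15, and in AAV-GFP 420 bp (chr10:33810446-33810865) with a fold enrichment of 5.17.

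The 2 Sult3a genes differed in the control list. Sult3a2 had regions near its start sites in both lists, at 504 bp in AAV-Cre and 233 bp in AAV-GFP, with 33.0% and 4.11% of the body covered. The AAV-GFP region at 233 bp was 253 bp wide, had a q-value of 0.979 and overlapped no AAV-Cre region. The lowest q-value of the 4 AAV-GFP regions of Sult3a2 was 0.182. With q-values of at most 0.05 Sult3a2 was thus called only in AAV-Cre, as was Sult3a1. Sult3a1, which has 2 start sites, had an AAV-Cre region at 532 bp from the downstream one (q-value 0.00145) and a stronger one at 836 bp from the upstream one (chr10:33858557-33860489, 1933 bp, fold enrichment 5.43, q-value 1.4e-13), both in introns, and 18.1% of its body was covered. The nearest AAV-GFP region was 46037 bp from Sult3a1, and 0% of its body was covered. This gave Sult3a1 the strongest region of the 5 members called only in AAV-Cre. The rank of that region by p-value in the whole AAV-Cre list was 5094, shared with other regions of equal p-value.

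The strongest start-site regions belonged to enzymes of other tissues. Ugt8a encodes ceramide galactosyltransferase, which makes the galactosylceramide of myelin. Its start site lay inside a region of 2211 bp in AAV-Cre (chr3:125937197-125939407, fold enrichment 9.44, q-value 2.83e-45) and of 1997 bp in AAV-GFP (chr3:125937340-125939336, fold enrichment 4.77, q-value 2.48e-12). This was its sole region in each list, and it covered 1.94% and 1.75% of the body of 73349 bp. The regions of Ugt8a thus had nearly equal extent in both lists.

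Sult4a1, a sulfotransferase-like protein of neurons, was marked over both the start sites and the body. The AAV-Cre region at the start sites spanned 6575 bp (chr15:84102067-84108641, fold enrichment 10.3, q-value 1.76e-41) and the AAV-GFP region 1909 bp (chr15:84104649-84106557, fold enrichment 4.21, q-value 3.75e-09). The body was covered to 46.3% in AAV-Cre and 9.40% in AAV-GFP, by 10 regions in each list. A region at the start sites was thus present in both lists and was wider in AAV-Cre. The ratio of AAV-Cre to AAV-GFP covered length was 4.93, against a median of 3.65 over all genes covered in both lists. The part of differences in calling in this width was not tested.

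Sult2b1, which sulfates cholesterol in skin, lies on chromosome 7 apart from the Sult2a array. All 3 of its start sites lay inside AAV-Cre regions and 2 inside AAV-GFP regions. The strongest of these spanned 6709 bp in AAV-Cre (chr7:45782054-45788762, fold enrichment 9.73) and 3290 bp in AAV-GFP (chr7:45784518-45787807, fold enrichment 4.54). Both also covered a start site of the neighbouring gene Lmtk3, so that this region cannot be assigned to Sult2b1 alone. The main start site, whose upstream stretch is printed above, lay in a separate AAV-Cre region of 4356 bp (chr7:45757013-45761368, fold enrichment 7.04, q-value 1.07e-25). The body was covered to 35.4% in AAV-Cre and 7.14% in AAV-GFP. A stronger AAV-Cre region within 15 kb (chr7:45796787-45799386, fold enrichment 12.0) lay over coding sequence of Lmtk3 and was closer to Lmtk3, at 11407 bp, than to Sult2b1, at 12118 bp.

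The omega enzymes reduce dehydroascorbate and other small molecules with glutathione and are neighbours on chromosome 19. At Gsto2 an AAV-Cre region of 2284 bp (chr19:47868460-47870743, fold enrichment 6.00, q-value 8.58e-17) contained a start site, and the nearest AAV-GFP region, of 802 bp (chr19:47869424-47870225, fold enrichment 1.85, q-value 0.958), was 37 bp from it. The body was covered to 49.5% in AAV-Cre by 9 regions and to 4.90% in AAV-GFP by 2 regions. Gsto2 was therefore marked in both lists, but neither AAV-GFP region had a q-value of 0.05 or lower. Gsto1 had its own AAV-Cre region of 592 bp, 521 bp upstream of the start site (chr19:47853858-47854449, q-value 0.00299). In AAV-GFP, Gsto1 was called through the Gsto2 region alone, at 14454 bp, the largest distance inside the window in that list.

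The remaining marked members had weak or distant regions. Gstm5, a mu enzyme known from brain and testis, had 1 intergenic AAV-Cre region of 819 bp at 9257 bp (chr3:107905504-107906322, fold enrichment 2.64, q-value 0.0086) and was 258141 bp from an AAV-GFP region. Sult6b2 had 3 intronic AAV-Cre regions, the nearest of 653 bp at 7835 bp with a q-value of 0.00299, that covered 7.27% of the body. Its nearest AAV-GFP region was 101505 bp away and closer to Abcc9. Sult6b1 was the sole member with a region within 1 kb in AAV-GFP and not in AAV-Cre. That AAV-GFP region was 259 bp wide, 677 bp from the start site, and had a q-value of 0.979. The nearest AAV-Cre region of Sult6b1 was 1419 bp away with a q-value of 0.0302, and 6.79% of its body was covered in AAV-Cre and 0% in AAV-GFP.

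Across the 15 members with a region over the body, the covered share was larger in AAV-Cre in 15 and in AAV-GFP in 0. Of all genes with a body region it was larger in AAV-Cre in 96.6%. For the 11 members covered in both lists, the ratio of AAV-Cre to AAV-GFP covered length had a median of 4.02 and ran from 1.11 (Ugt8a) to 40.8 (Sult2a6), and the median over 4279 genes covered in both lists was 3.65. The median of the members was thus close to that of all genes. A peak in AAV-Cre was at least 300 bp wide and in AAV-GFP at least 120 bp, and the part of such differences in calling in the covered length was not tested.

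**Figure D3:**
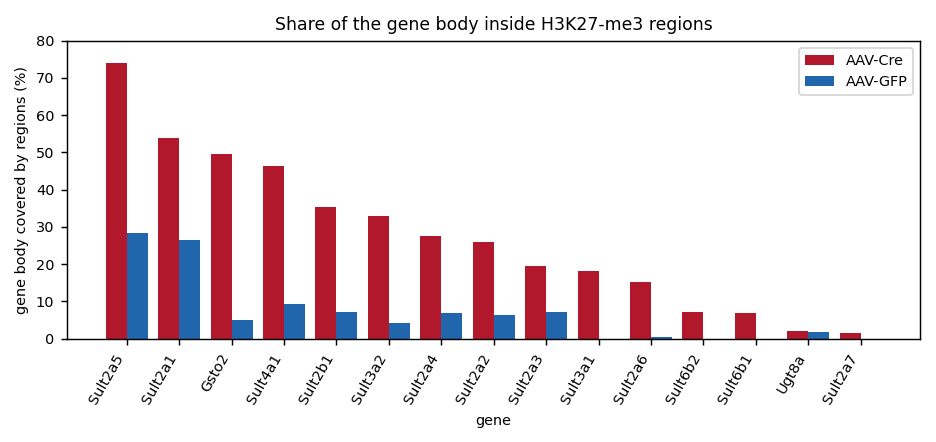
Share of the gene body covered by H3K27-me3 regions (y axis, percent) for the 15 members with a body region, with 1 bar per list and no error bar because each list pools both libraries. The AAV-Cre bar is the higher for every one of these members, from 1.44% at Sult2a7 to 74.1% at Sult2a5, and AAV-GFP reaches at most 28.5%.

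The regions themselves were described by strength and position. In total 179 AAV-Cre regions (241 kb) and 196 AAV-GFP regions (65.4 kb) lay within 15 kb of a member's start site or over its body. The Sult2a genes held 105 (58.7%) of the former and 155 (79.1%) of the latter. Of the AAV-Cre regions, 90 overlapped an AAV-GFP region (50.3%, interval 43.0 to 57.5%), against 24.1% of all AAV-Cre regions. Without the Sult2a genes, a choice made after the data had been seen, 28.4% of the 74 remaining AAV-Cre regions did so. Of the AAV-GFP regions, 181 overlapped an AAV-Cre region (92.3%, interval 87.8 to 95.3%), against 86.3% of all. Many of the regions belong to few loci, so the intervals are narrower than independent loci would give. Introns held 102 of the AAV-Cre regions, intergenic sequence 45, coding exons 19 and exons with untranslated sequence 13. For AAV-GFP the numbers were 132, 38, 16 and 10 in the same order. Of members with a start site inside a region there were 4 in AAV-Cre (Ugt8a, Sult2b1, Sult4a1 and Gsto2) and 3 in AAV-GFP, the same without Gsto2, whereas 20.1% and 11.4% of all genes had one.

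The Ugt1 genes, whether or not on the list of hepatocyte enzymes given below, lay in a stretch without a region in each list. The 9 Ugt1 genes share their last exons and differ in their first, and Ugt1a1 conjugates bilirubin. They lay inside a stretch of 479 kb without a region in AAV-Cre and 851 kb in AAV-GFP, and 1.64% and 1.81% of all gaps between regions were longer. Each gap was counted once whatever its length, so such shares do not show how often a gene lies in a stretch of that length. Ugt1a1 was the member closest outside the window in AAV-Cre, at 18365 bp from a region of 345 bp with a q-value of 0.0282 that was closer to Mroh2a. In AAV-GFP Ugt1a1 was 98526 bp from a region. The farthest Ugt1 gene in both lists was Ugt1a10, at 174913 and 255074 bp.

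The Ugt2 genes, which conjugate steroids and bile acids, lay with Sult1b1, Sult1d1 and Sult1e1 in 1 locus of 13 members on chromosome 5. In AAV-GFP this locus was inside a stretch of 1770 kb without a region, and 0.335% of gaps were longer. In AAV-Cre 2 neighbouring regions of 1295 and 1312 bp lay within the locus, the nearer of them 50402 bp from Ugt2b5, its closest start site. The distances of the Ugt2 genes ran from 50402 to 296635 bp in AAV-Cre and from 460882 to 859198 bp in AAV-GFP. Ugt3a1 and Ugt3a2 were in a stretch of 781 kb in AAV-Cre and 2320 kb in AAV-GFP, and Ugt3a2, at 368666 bp, was the member farthest from an AAV-Cre region. The median gap between regions was 1.73 kb in AAV-Cre and 1.08 kb in AAV-GFP. Each gap counts once there, including the short ones inside split domains, so this median is not the gap around a typical gene. Over all genes the median distance to a region was 23899 bp in AAV-Cre and 53778 bp in AAV-GFP.

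The unmarked transferases of glutathione and sulfate were examined in the same way. The alpha genes were from 30549 bp (Gsta2) to 104572 bp (Gsta4) from an AAV-Cre region, and the closest gene to the Gsta2 region was Ooep. For Gsta1 this distance is uncertain, because 7.52% of the 31-base words of its body occurred once in the genome. The 6 unmarked mu genes were from 25292 bp (Gstm7) to 111484 bp (Gstm1) away in AAV-Cre. The pi genes were from 40579 to 62040 bp, and the theta genes from 93085 to 129716 bp away. Gstz1, which isomerizes maleylacetoacetate in tyrosine breakdown, was 44304 bp from a region closer to Ngb, and Gstk1 was 74837 bp from one closer to Fam131b. The phenol sulfotransferase Sult1a1 was 25104 and 25729 bp, in AAV-Cre and AAV-GFP, from regions closer to Coro1a. Sult1c1 was 301530 bp from an AAV-Cre and 106119 bp from an AAV-GFP region, the sole unmarked member closer to the latter. Sult5a1 was 22140 and 26476 bp from regions closer to Cpne7. Over the 48 unmarked members the median distance was 106240.5 bp in AAV-Cre and 189749 bp in AAV-GFP.

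Over all 65 members the median distance to the nearest region was 62961 bp in AAV-Cre and 136947 bp in AAV-GFP, and over all genes it was 23899 and 53778 bp. The median of the members was thus the larger in both lists. Distances of neighbours are not independent, and no test of this difference was made.

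CpG content was examined as a property that the choice of members did not use. The observed over expected CpG within 500 bp of the main start site had a median of 0.219 over the members and 0.582 over all genes. A ratio of at least 0.6 was found for 5 members (7.69%), namely Ugt8a (0.921), Gsto2 (0.819), Gstz1 (0.778), Sult4a1 (0.743) and Gsto1 (0.632), against 48.5% of all genes. Of these 5, all but Gstz1 had a region within 1 kb. The 7 Sult2a and Sult3a genes with a region within 1 kb had a median ratio of 0.097 (range 0.032 to 0.392), and the 6 other members with such a region had 0.688 (range 0.31 to 0.921). The 48 members without a region had a median of 0.219. Marked members thus lay at both ends of the range of CpG content at the start site, and low values were also found among unmarked members. Of the stretches printed above, that of Ugt8a lay inside regions, whereas that of Sult2a5 lay near regions but outside them. Over all genes the median was 0.569 with a region within 1 kb and 0.577 without one within 15 kb.

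**Figure D4:**
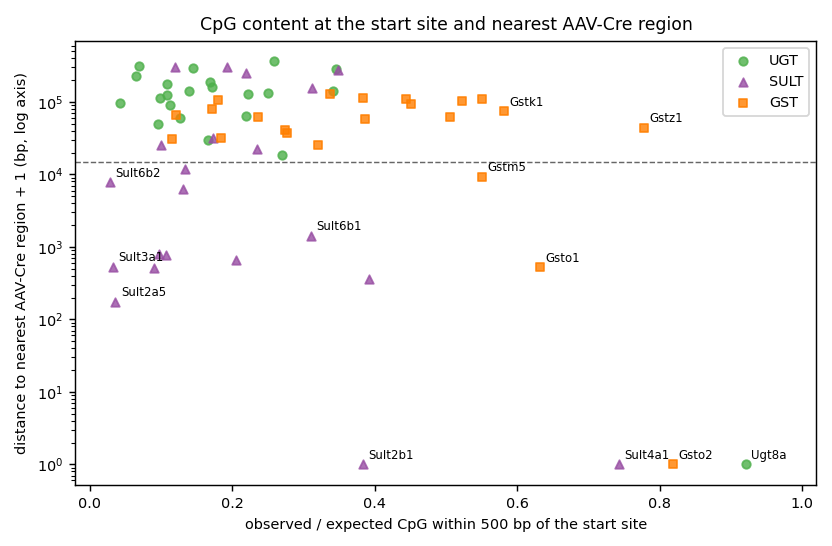
Observed over expected CpG within 500 bp of the main start site (x axis, ratio without unit) against the distance in bp to the nearest AAV-Cre region (y axis, log scale, plotted as distance + 1, dashed line at 15 kb) for the 65 members. The 7 Sult2a and Sult3a genes with a region within 1 kb have a median of 0.097. Over all marked members the ratios run from 0.028 at Sult6b2 to 0.921 at Ugt8a.

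Lists of members set from textbook knowledge differed in the mark. Of 20 members known as hepatocyte enzymes, among them Ugt1a1, Ugt2b1, Sult1a1, Gsta3, Gstm1 and Gstp1, 0 were marked within 15 kb in either list. Of all genes 43.1% were marked in AAV-Cre and 29.0% in AAV-GFP. Their nearest AAV-Cre regions were from 18365 to 368666 bp away, and 5 were marked within 50 kb in AAV-Cre and 2 in AAV-GFP. Of 10 members known mainly from other tissues, 5 were marked in AAV-Cre (Ugt8a, Sult2b1, Sult4a1, Gsto2 and Gstm5) and 4 in AAV-GFP, the same without Gstm5. The unmarked members of this list were Gstm3, Ugt2a1, Ugt2a2, Sult1c1 and Sult1e1. Of the Sult2a genes only the unmarked Sult2a8 was on the hepatocyte list. The marked Sult2a and Sult3a genes, Sult6b1, Sult6b2 and Gsto1 were on neither list, so that most marked members were left out of this comparison. The lists hold genes of the same loci and were made with earlier results known, so that their counts are a description.

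Other genes of conjugation were counted in the same way. Of 37 such genes, 8 were marked in AAV-Cre and 3 in AAV-GFP, shares below the 43.1% and 29.0% of all genes. Only in AAV-Cre 5 of the 37 were marked, a share near the 15.3% of all genes. Among 9 genes of cofactor supply the marked ones were Gss, the glutathione synthetase, and Papss1, which makes the sulfate donor, both only in AAV-Cre. Ugdh, which makes UDP-glucuronic acid, had its nearest regions at 267458 and 823704 bp. Among 11 microsomal and other transferases, Mgst3 was marked in both lists and Mgst2 only in AAV-Cre, at 467 bp and with 11.5% of the body covered. Of 4 genes that reverse conjugation, Arsa was marked only in AAV-Cre. Of 10 receptors and regulators, Arnt and Keap1 were marked in both lists, whereas the xenobiotic receptors Nr1i2 and Nr1i3 and the regulator Nfe2l2 were not. Of 3 transporters of conjugates, Abcg2 was marked only in AAV-Cre, and Abcc2 and Abcc3 were not marked.

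The mark was also counted at markers of the cell types of the liver. Of 6 hepatocyte markers, among them Alb and Apoa1, 0 were marked within 15 kb in either list. Of 4 cholangiocyte markers 4 were marked in AAV-Cre and 3 in AAV-GFP, and of 4 stellate cell markers 4 in both. The counts for AAV-Cre and AAV-GFP were 3 and 2 of 4 endothelial, 1 and 0 of 3 Kupffer cell and 2 and 0 of 4 lymphocyte markers. Of all genes 43.1% were marked in AAV-Cre and 29.0% in AAV-GFP, and no difference from these shares was tested. The part of cells other than hepatocytes in the regions of the conjugation enzymes was not tested. The lists do not measure the deletion in Jmjd3, hold no read counts and leave the depth of the libraries unknown.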

How the data were processed

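H3K27-me3 ChIP-seq was made by the authors from livers of 2 mice per group, with input as control. Per the labels and methods, reads were mapped to mm10 with BWA (0.7.13) and filtered with SAMtools (1.2) and Picard (1.126). Peaks were called with MACS in the AQUAS pipeline against pooled input, and those overlapping across replicates were kept. The authors deposited 1 peak list per group, so samples of a group have no separate values. For each peak the deposited files hold a position, a fold enrichment over input, and the −log10 of a p-value and of a q-value, computed by the authors' peak caller. A deposited display score was not used. Read counts are not given, so the depth of each sample is unknown. MACS splits broad domains into several narrow peaks, so covered length is given beside counts of regions.

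Genes, start sites of basic protein-coding transcripts and exons were from GENCODE M21 (GRCm38, the assembly of mm10), and upstream sequences from RefSeq (GRCm38.p6). A gene was called marked with a region within 15 kb of a start site, and regions were called shared with an overlap of at least 1 bp. Shares have Wilson 95% intervals. Python 3.11 with numpy 2.4.6, pandas 2.3.3 and scipy 1.17.1 was used, and overlap and interval functions were tested on simulated data. Only 1 list per group exists, so no test between groups was made. Members, gene lists and rules were chosen with earlier results of these data known. Named are members with a region within 1 kb or in 1 list only, the strongest member of each subfamily, the 5 with most of the body covered per list, and those nearest the edge of the window. Alternatives were q-value thresholds, equal numbers of peaks, a minimum width, other windows, start sites and overlap rules, and merging.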

Additional observations from a re-analysis of the deposited data

How the results depend on the processing

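Of 122 values recomputed under 14 settings, 77 did not move beyond 1.5 times (counts) or the Wilson interval (shares), and AAV-Cre marked at least as many members as AAV-GFP under each setting in which members were counted. The cause of the moves was not tested, except where a setting removes or joins regions by construction.

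Regions with q at or under 0.05 numbered 88 in AAV-GFP and gave 4 members with an AAV-GFP region within 1 kb, and 9 (15 kb), 8 (1 kb) and 7 (body) members only in AAV-Cre, with 0 only in AAV-GFP at 1 kb and 31.1% of AAV-Cre and 97.7% of AAV-GFP regions shared. With q at or under 0.01 there were 62 regions, 3 members, counts of 9, 8, 7 and 0 (at 1 kb with Sult2a4 in place of Sult2a2), and shares of 28.6% and 96.8%. Gsto1, Gsto2, Sult3a2 and Sult6b1 were the members added to those only in AAV-Cre at 15 kb. With the same number of top peaks 2 members were only in AAV-Cre at 15 kb, Sult2a7 and Sult3a1, and the shared share of AAV-Cre was 63.8%, and the calls of Gstm5, Sult2a6 and Sult6b2 were lost. A width of at least 300 bp left 69 AAV-GFP regions, 5 members in AAV-GFP and 0 only in AAV-GFP at 1 kb, and shares of 26.8% and 100%.

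At 5 kb 2 members were only in AAV-Cre (Gsto1 and Sult3a1), and at 50 kb the AAV-Cre list marked 28, of which 10 only there. With start sites of all transcripts 0 were only in AAV-GFP at 1 kb. With 10% of the body required, 2 members were covered in AAV-GFP and 9 only in AAV-Cre. Regions joined over gaps of up to 1 kb numbered 79 in AAV-Cre and 76 in AAV-GFP. When at least 0.5 of a region had to be covered, the shared share of AAV-Cre was 13.4%, and within 1 kb the shares were 59.2% and 97.4%.

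Chosen after the data had been seen were 2 settings. Without the Sult2a genes, 10 (AAV-Cre) and 7 (AAV-GFP) members were marked at 15 kb with 3 only in AAV-Cre, 7 in AAV-Cre at 1 kb with 2 only there, and 8 and 5 over the body, from 74 and 41 regions, and the shared share of AAV-Cre was 28.4%. With regions of largely unique sequence, 3 members were only in AAV-Cre at 1 kb, without Sult2a1 and Sult2a2.

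No paired analysis was possible because each list combines both mice of its group, and for the same reason no value without 1 mouse was obtained. Without read counts, a missing region cannot be told apart from one too weak to be called at the depth of its list.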
